A study of Homo sapiens with 12 samples.

Results

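The genes described here are 38 genes of the endoplasmic reticulum (ER), chosen by name as ER folding factors, sensors of the unfolded protein response, ER-associated degradation genes and translocon genes. All 38 had a row among the 26364 gene symbols of the count table, and all 38 were among the 14184 genes with enough counts to be tested. By role they were 9 lumenal chaperones and cofactors, 3 genes of the lectin chaperone cycle, 6 protein disulfide isomerases, 4 sensors and transcription factors of the unfolded protein response, 9 degradation genes and 7 translocation genes.

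The cells were MDA-MB-231, an established breast cancer line of triple-negative type with mesenchymal features, sequenced after 24 h in 1 of 4 conditions with 3 wells each. Wells received dexamethasone (DEX, a synthetic glucocorticoid) at 1 µM together with SH4-54 (an inhibitor of the transcription factors STAT3 and STAT5) at 8 µM, DEX alone at 1 µM, SH4-54 alone at 8 µM, or no drug. All groups share 1 cell line and its genotype, and a solvent control is not named in the labels. The replicates are wells of that line, and the p-values rest on how much such wells differ, which may be technical. Library totals were 26.3 M to 35.8 M counts with both compounds, 26.0 M to 29.4 M with DEX, 25.6 M to 28.9 M with SH4-54 and 28.4 M to 31.6 M without drug. CPM below are depth-scaled counts (TMM-scaled library sizes), values after ± are the SD of 3 wells for CPM and the standard error for log2 fold changes, and a gene counts as risen or fallen at an edgeR adjusted p below 0.05.

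Marker genes were compared with the label of the line. VIM, CD44 and AXL, all high in mesenchymal cells, had at least 805, 274 and 634 CPM in every library. The hormone receptor genes ESR1 and PGR stayed at or below 0.233 and 0.45 CPM, while ERBB2 (73.8 to 90.4 CPM), EPCAM (17.3 to 23.2 CPM) and the epithelial cadherin gene CDH1 (5.29 to 15.0 CPM) were detected. Of markers of blood and endothelial cells, PTPRC, PECAM1 and VWF stayed at or below 0.733, 1.20 and 0.145 CPM, while CD68 had 35.2 to 52.4 CPM. The glucocorticoid target FKBP5 had 202, 180.4 and 271 CPM with both compounds and 325, 344 and 309.6 CPM with DEX, against 54.0, 56.7 and 52.3 CPM with SH4-54 and 53.7, 55.5 and 52.4 CPM without drug. The cytosolic heat shock gene HSPA6 had 150.2, 483 and 156 CPM with both compounds, 0.232, 0.308 and 0.64 CPM with DEX, 25.4, 27.1 and 19.4 CPM with SH4-54 and 0.501, 0.265 and 0.457 CPM without drug. Combination replicate 2 had the lowest value on the second principal component (-31.4, against -22.3 and -13.0 for the other combination wells). Combination replicate 3 lay at the other end of the 3 wells, so replicate 2 was not the only one apart. Counts that rest on the combination are also given without replicate 2 and without replicate 3.

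Proteins that enter the secretory pathway pass through the SEC61 channel into the ER lumen, where the HSP70-type chaperone BiP, the lectin chaperones and the disulfide isomerases help them fold. Proteins that fail to fold are marked, drawn back through the membrane and degraded by the proteasome, a route called ER-associated degradation. When unfolded proteins accumulate, the membrane sensors encoded by ATF6, ERN1 and EIF2AK3 start the unfolded protein response, which raises transcription of chaperone and degradation genes through the ATF6 and XBP1 proteins and slows translation.

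That transcriptional response is known to act through ER stress response elements, so the promoters of the genes were searched for them. RefSeq promoter windows (250 bases before to 50 after the gene start, GRCh38.p14) were matched for 36 of the 38 genes, all but PDIA3 and DERL1, VIMP under its current symbol. The element ERSE, searched on both strands as CCAAT and CCACG with 9 bases between them, was found in 6 of 36 windows (16.7%), those of HSPA5, HSP90B1, CRELD2, CALR, CANX and XBP1. It was found in 27 of the 35116 windows of all genes (0.0769%). Letting 8 to 10 bases lie between them gave the same 6 genes and 46 windows of all genes (0.131%). ERSE-II, searched as ATTGG and CCACG with 1 base between them, was found in 3 windows (8.33%), those of HYOU1, SDF2L1 and HERPUD1, against 0.0541% of all windows. The XBP1-binding core TGACGTGG was found in the HYOU1 window, where it overlaps 1 of the ERSE-II sites, against 0.729% of all windows. Both elements hold a CCAAT box, which alone was in 77.8% of the 36 windows and 34.6% of all windows. The windows of all genes include genes not tested here. The 38 genes were chosen by name from the pathway that uses these elements. Their higher shares were therefore likely in advance and are no result of these data.

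The stretches that hold the elements are shown 5′ to 3′ on the strand of the gene because they are what 9 of the 38 genes share in these windows, with the fixed bases of each ERSE or ERSE-II in capitals. The stretches lie at chr9:125241381-125241419 on the minus strand (HSPA5), chr12:103930206-103930349 on the plus strand (HSP90B1), chr22:49918544-49918582 on the plus strand (CRELD2), chr19:12938374-12938412 on the plus strand (CALR), chr5:179698768-179698806 on the plus strand (CANX), chr22:28800593-28800631 on the minus strand (XBP1), chr11:119057264-119057400 on the minus strand (HYOU1), chr22:21642104-21642134 on the plus strand (SDF2L1) and chr16:56932015-56932045 on the plus strand (HERPUD1), all upstream of the RefSeq gene start in GRCh38.p14. The capitals read as the reverse complement where the element lies on the other strand.
HSPA5: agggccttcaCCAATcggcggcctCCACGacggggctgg
HSP90B1: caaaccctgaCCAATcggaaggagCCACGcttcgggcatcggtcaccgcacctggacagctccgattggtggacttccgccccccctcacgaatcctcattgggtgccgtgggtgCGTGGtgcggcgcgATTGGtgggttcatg
CRELD2: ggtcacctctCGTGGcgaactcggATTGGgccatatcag
CALR: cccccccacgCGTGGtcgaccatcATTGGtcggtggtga
CANX: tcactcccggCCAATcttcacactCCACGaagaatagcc
XBP1: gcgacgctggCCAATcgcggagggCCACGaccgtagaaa
HYOU1: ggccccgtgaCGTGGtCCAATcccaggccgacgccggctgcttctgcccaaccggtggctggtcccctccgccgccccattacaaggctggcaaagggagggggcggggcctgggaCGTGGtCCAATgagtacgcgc
SDF2L1: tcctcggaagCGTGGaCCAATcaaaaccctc
HERPUD1: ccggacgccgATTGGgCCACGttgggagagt

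HSP90B1 and HYOU1 each held a pair of elements, as 2 ERSE and 2 ERSE-II sites. The palindromic glucocorticoid element searched as AGAACA and TGTTCT with 3 bases between them was in none of the 36 windows and in 1 window of all genes, and TGTTCT alone was in 1 of the 36, that of SSR3, against 14.8% of all windows. A match describes letters, not bound sites, and windows of this length leave out distant elements.

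The first question was how the glucocorticoid alone altered these genes. Compared with no drug, DEX raised 24 of the 38 genes and lowered none, each by less than 2-fold. The rises took in all 9 lumenal chaperones and cofactors, 6 of 9 degradation genes, 4 of 7 translocation genes, 3 of 6 disulfide isomerases, 1 of 3 lectin cycle genes and 1 of 4 sensor genes. Those 24 are 63.2% of the 38, against 21.9% of all tested genes that rose and 23.2% that fell, 45.1% called in all. The median log2 fold change was 0.14 over the 38 genes and -0.011 over all tested genes. The largest rises were those of PDIA5 (1.47-fold), HSPA5 (1.36-fold), EDEM2 (1.33-fold), MANF (1.28-fold) and CRELD2 (1.25-fold). For all 24 genes the DEX and no-drug wells did not overlap. Such a separation is likely once a gene is called, adds no support to a call and was not counted over all tested genes. In bulk RNA, a change in RNA per cell and a change in the share of cells that carry it cannot be told apart.

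**Figure D1:**
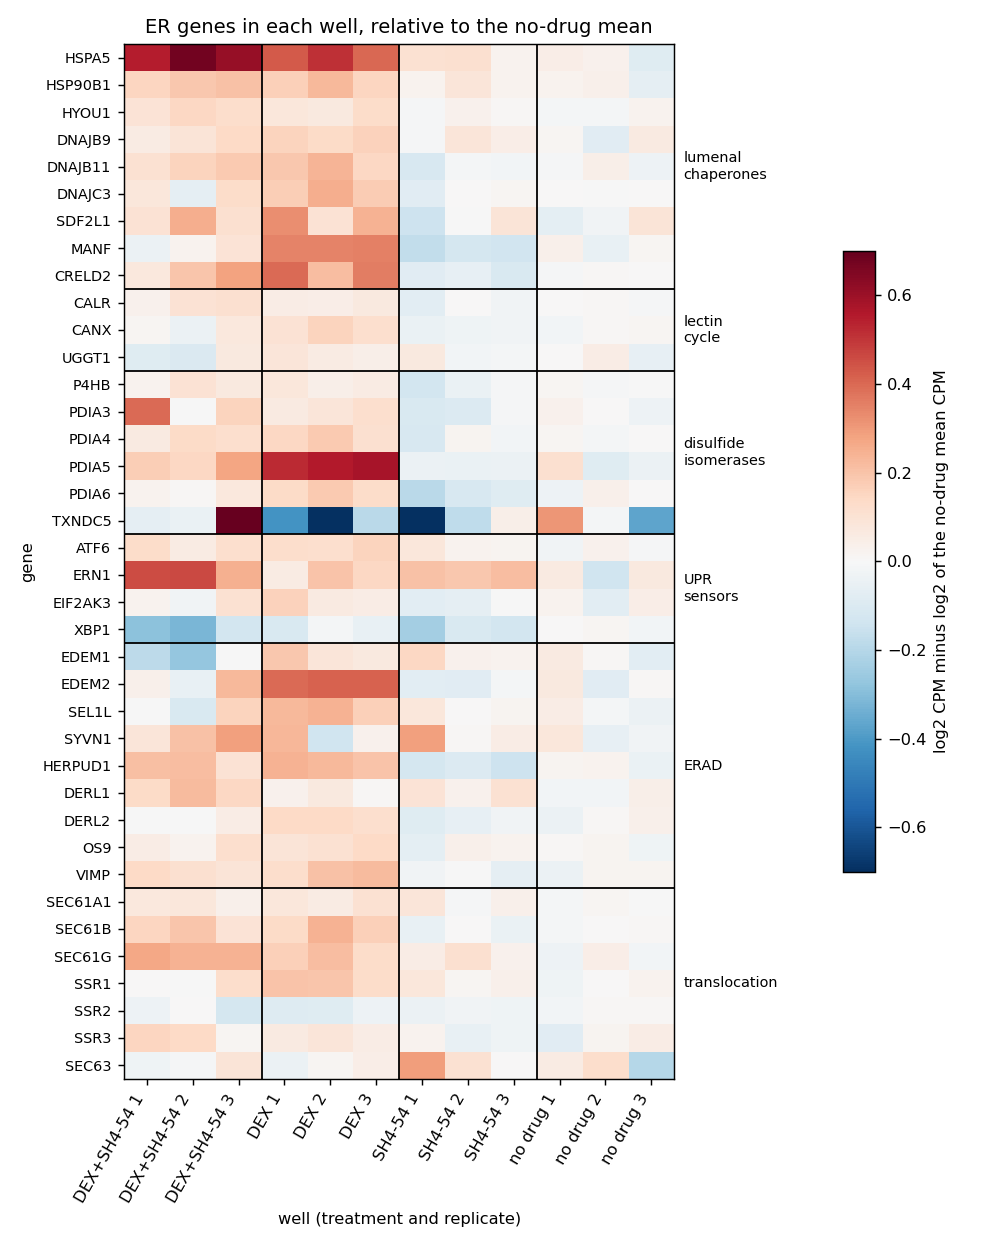
Each row is 1 of the 38 genes, grouped by role, and each column is 1 well; colour is log2 CPM minus the log2 of the no-drug mean CPM, with the scale ending at 0.7 in either direction. The DEX wells are red for nearly all rows of the lumenal chaperones, the SH4-54 wells stay near white, and MANF, PDIA5 and EDEM2 are paler in the combination wells than in the DEX wells.

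HSPA5 encodes BiP, the central HSP70-type chaperone of the ER lumen and the inhibitor that holds the sensors inactive. It had 492, 536 and 512 CPM with both compounds, 453, 479 and 444 CPM with DEX, 363, 364 and 343 CPM with SH4-54 and 348, 344 and 317 CPM without drug. Every DEX well lay above every well without DEX, and the combination wells were the highest. The log2 fold change was 0.45 ± 0.044 for DEX against no drug (adjusted p = 9.46e-07).

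HSP90B1, the HSP90-type chaperone of the ER, had 1185, 1233 and 1172 CPM with DEX and 1072, 1082 and 1010.1 CPM without drug (0.18 ± 0.035, adjusted p = 0.000574). Its row may share reads with the pseudogene HSP90B2P, which had 13.4 to 18.8 CPM. The BiP nucleotide exchange factor gene HYOU1 rose by the least of the group (0.092 ± 0.028). The J-protein cochaperone genes DNAJB9, DNAJB11 and DNAJC3, whose products stimulate BiP, rose by 0.15 ± 0.049, 0.19 ± 0.038 and 0.20 ± 0.044 on the log2 scale. DNAJB9, which also acts on the sensor IRE1, had 26.5, 26.1 and 26.6 CPM with DEX and 24.0, 22.5 and 24.8 CPM without drug. The groups do not overlap, but the call was lost with the DESeq2 Wald test (adjusted p = 0.0517) and without DEX replicate 1, DEX replicate 3 or no-drug replicate 2 (edgeR adjusted p 0.0543, 0.0589 and 0.0954).

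MANF, a secreted ER stress protein that binds BiP, had 74.4, 77.8 and 81.9 CPM with both compounds, 97.5, 97.5 and 97.8 CPM with DEX, 67.8, 70.2 and 69.7 CPM with SH4-54 and 78.4, 73.9 and 77.3 CPM without drug. Its DEX wells agreed to within 1 CPM and stood above all 9 other wells. The rise was 0.35 ± 0.038 against no drug (adjusted p = 2.26e-06). CRELD2, another stress-inducible ER protein gene, and SDF2L1, which encodes a partner of the J-protein DNAJB11, rose by 0.32 ± 0.062 and 0.23 ± 0.075 from mean levels near 15 CPM without drug. The call of SDF2L1 was lost without DEX replicate 1 or 3 or no-drug replicate 1 or 2 (edgeR adjusted p 0.0624 to 0.103), and that of HYOU1 without DEX replicate 3 or no-drug replicate 2 (0.0742 and 0.0512).

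The lectin chaperones bind newly made glycoproteins that carry a single glucose. CANX, the membrane-bound lectin calnexin, had 2353, 2262 and 2449 CPM with both compounds, 2499, 2593 and 2526 CPM with DEX, 2258, 2279.7 and 2288 CPM with SH4-54 and 2296, 2341 and 2350.1 CPM without drug. It rose with DEX by 0.12 ± 0.033 (adjusted p = 0.00669), with no overlap between the DEX and no-drug wells. CALR, the soluble lectin calreticulin, had 1031, 1026 and 1042 CPM with DEX and 997, 999 and 987 CPM without drug. Its difference of 0.055 ± 0.031 was not called (adjusted p = 0.162), although the wells did not overlap. UGGT1, which encodes the folding sensor that puts glucose back on unfolded glycoproteins, had 157, 154 and 153 CPM with DEX and 149, 154 and 142 CPM without drug, with overlapping wells (0.061 ± 0.045, adjusted p = 0.298).

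Disulfide isomerases make and reshuffle the disulfide bonds of folding proteins. PDIA5 had 14.3, 14.0 and 15.4 CPM with both compounds, 18.2, 18.6 and 18.9 CPM with DEX, 12.3, 12.3 and 12.3 CPM with SH4-54 and 13.7, 11.97 and 12.3 CPM without drug. Its DEX wells stood above all others, and its log2 fold change of 0.55 ± 0.061 was the largest of the 38 genes (adjusted p = 2.98e-06). PDIA6 had 231, 239 and 230.2 CPM with DEX and 205, 215 and 211 CPM without drug (0.15 ± 0.034, adjusted p = 0.00257), and PDIA4 had 404, 416 and 395 CPM with DEX and 369, 362 and 367 CPM without drug (0.15 ± 0.036, adjusted p = 0.00358). For both genes the wells did not overlap. The abundant family members P4HB and PDIA3 had log2 differences of 0.059 ± 0.034 and 0.086 ± 0.069 and were not called.

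TXNDC5, a further member of the isomerase family, is uncertain. It had only 2.86, 2.09 and 3.35 CPM with DEX and 4.73, 3.78 and 2.95 CPM without drug, and the row of the readthrough gene BLOC1S5-TXNDC5, which shares its exons, is 0 in every library. Its log2 difference of -0.48 ± 0.29 had the largest standard error of the 38 genes and was not called.

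Among the sensors, ATF6, the precursor of a transcription factor freed by cleavage in the Golgi, was the only gene called with DEX. It had 152, 152 and 156 CPM with DEX and 138, 143 and 139 CPM without drug (0.13 ± 0.032, adjusted p = 0.00305), without overlap. EIF2AK3, the kinase PERK that slows translation, had 47.3, 44.2 and 43.8 CPM with DEX and 42.9, 40.2 and 43.7 CPM without drug (0.092 ± 0.049, adjusted p = 0.142), and the lowest DEX well lay only just above the highest no-drug well. ERN1, the kinase and RNase IRE1, stood near 4 CPM in both groups (0.14 ± 0.10, adjusted p = 0.305). XBP1, whose mRNA is spliced by IRE1, had 91.0, 88.9 and 102 CPM with both compounds, 103, 110.2 and 107 CPM with DEX, 94.3, 103 and 102 CPM with SH4-54 and 111, 112 and 109.9 CPM without drug. It was not called with DEX (-0.056 ± 0.048, adjusted p = 0.375), and counts per gene do not tell its spliced from its unspliced form.

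Among the degradation genes, EDEM2, which encodes a mannose-trimming enzyme that starts glycoprotein disposal, had 41.1, 38.8 and 47.1 CPM with both compounds, 52.9, 53.5 and 53.5 CPM with DEX, 38.2, 37.99 and 39.8 CPM with SH4-54 and 42.2, 38.1 and 40.4 CPM without drug. The DEX wells stood above all 9 others, and the rise was 0.41 ± 0.060 (adjusted p = 6.32e-05). Its relative EDEM1 had 132, 123 and 122 CPM with DEX and 121, 117 and 110.1 CPM without drug and was not called (0.11 ± 0.060, adjusted p = 0.142), the lowest DEX well lying only just above the highest no-drug well. HERPUD1, a stress-induced organiser of the ubiquitin ligase complex, had 44.7, 45.03 and 41.5 CPM with both compounds, 45.8, 45.4 and 44.5 CPM with DEX, 35.6, 36.2 and 35.0 CPM with SH4-54 and 39.2, 39.4 and 37.5 CPM without drug. All 6 wells with DEX stood above all 6 without it, and the rise with DEX alone was 0.22 ± 0.042 (adjusted p = 0.000515).

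VIMP, which links the ER membrane to the ATPase that pulls proteins out, had 68.0, 71.8 and 72.7 CPM with DEX and 60.8, 63.2 and 63.2 CPM without drug (0.18 ± 0.037, adjusted p = 0.000838). SEL1L, the scaffold of the ligase complex, rose by 0.21 ± 0.052 on the log2 scale, while SYVN1, its ligase HRD1, stood at 8.79 ± 1.1 CPM with DEX and 8.501 ± 0.43 CPM without drug and was not called (0.044 ± 0.10). Of the membrane proteins called derlins, DERL2 rose by 0.13 ± 0.032 and DERL1 was not called (0.036 ± 0.036). OS9, a lectin that recognises trimmed glycoproteins, rose by 0.11 ± 0.036 on the log2 scale, a call lost without DEX replicate 3 or no-drug replicate 3 (edgeR adjusted p 0.0784 and 0.0803).

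Of the 3 subunits of the SEC61 channel, SEC61B had 94.9, 102 and 97.2 CPM with DEX and 85.7, 86.7 and 87.1 CPM without drug (0.18 ± 0.036, adjusted p = 0.000782). SEC61G had 52.0, 53.9 and 50.6 CPM with DEX and 45.3, 48.0 and 45.8 CPM without drug (0.17 ± 0.040, adjusted p = 0.00261). Neither gene's groups overlapped. The pore subunit gene SEC61A1 rose by 0.081 ± 0.030, the smallest called difference, with an adjusted p of 0.0400. That call was lost without a count filter (0.0603), with the replicate number as a block (0.0594) and without any 1 of 6 libraries (0.0519 to 0.137, among them DEX replicates 1 and 3 and each no-drug replicate).

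The SSR genes encode subunits of the translocon-associated protein complex. SSR1 had 281, 279 and 305 CPM with both compounds, 322, 320.0 and 306 CPM with DEX, 296, 282 and 287 CPM with SH4-54 and 275, 281 and 285 CPM without drug. It rose with DEX (0.17 ± 0.037, adjusted p = 0.00139), whereas SSR2 (-0.069 ± 0.033) and SSR3 (0.066 ± 0.041) were not called. SEC63, the J-protein that brings BiP to the channel, had 38.3 ± 1.1 CPM with DEX and 38.2 ± 4.3 CPM without drug, a log2 difference of 0.0048 ± 0.079 that was not called.

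**Figure D2:**
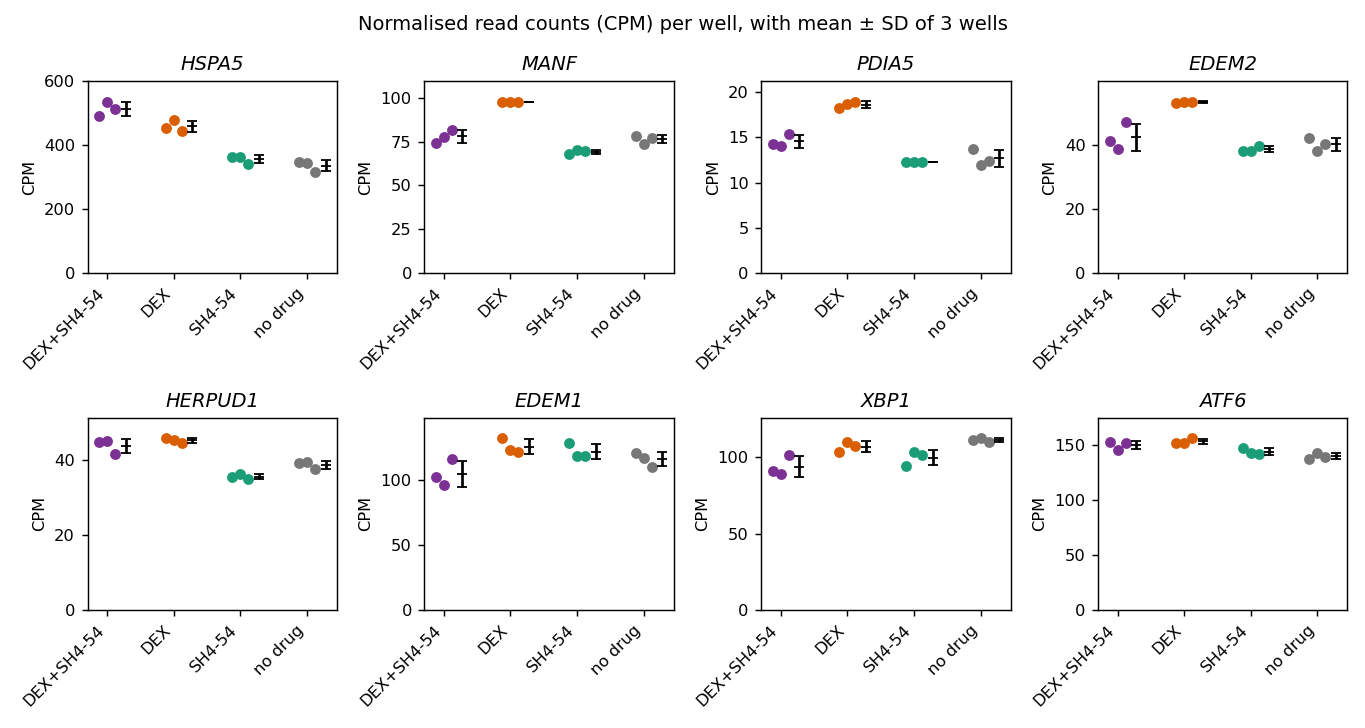
Points are the CPM of single wells for 8 of the genes in the 4 treatments, and the bar beside each group is the mean ± SD of 3 wells. HSPA5 and HERPUD1 are high in all 6 wells with DEX, MANF, PDIA5 and EDEM2 are highest in the DEX wells, and XBP1 and EDEM1 are lowest in combination replicate 2.

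The 9 genes with an ERSE or ERSE-II in their promoter window did not all respond to DEX. Of them 7 rose, all but CALR and XBP1, with a median log2 fold change of 0.18 and a range from -0.056 to 0.45. Of the 27 other genes with a window 17 rose, with a median of 0.14. PDIA5, MANF and EDEM2, among the 4 genes that rose most, are in this second set.

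SH4-54 alone, compared with no drug, changed none of the 38 genes by edgeR, against 0.599% of all tested genes, and none by DESeq2. At an unadjusted p below 0.05 stood 5 of them, 13.2%, against 13.1% of all tested genes, so the count was at the background. Those 5 were MANF (-0.14 ± 0.038), PDIA6 (-0.13 ± 0.035), XBP1 (-0.16 ± 0.048), HERPUD1 (-0.12 ± 0.043) and DERL1 (0.079 ± 0.036), with edgeR adjusted p from 0.119 to 0.364. The median log2 fold change was -0.025 over the 38 genes and the median standard error 0.041. HSPA5 had 363, 364 and 343 CPM with SH4-54 and 348, 344 and 317 CPM without drug, with overlapping wells (0.083 ± 0.044). For MANF, PDIA6, XBP1 and HERPUD1, which were picked here by their unadjusted p, all 3 SH4-54 wells lay below all 3 no-drug wells. Such a separation is likely after that pick and adds no support for a change.

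Adding SH4-54 to DEX was judged against the DEX wells. In that comparison 11 of the 38 genes fell and 3 rose. The falls were spread over every role, with 4 degradation genes (EDEM1, EDEM2, SEL1L and DERL2), 2 cofactors (MANF and DNAJC3), 2 isomerases (PDIA5 and PDIA6) and 1 gene each of the lectin cycle (CANX), the sensors (XBP1) and translocation (SSR1). The 3 rises were those of HSPA5, DERL1 and TXNDC5. The 14 called genes are 36.8% of the 38, against 26.6% of all tested genes. The 11 that fell are 28.9%, against 13.5% of all tested genes, and the 3 that rose are 7.89%, against 13%. The number called was 7, of which 5 fell, both without DEX replicate 2 and without combination replicate 2, fits that also have fewer wells. The number called over all tested genes fell too, from 3770 with all libraries to 2663 and 2213 in those fits. In both fits the share of the 38 genes called was thus near that of all tested genes. Without combination replicate 3 the number called was 16, of which 13 fell, while 4633 of all tested genes were called. The shares given above are those of the fit with all 12 libraries.

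The largest falls were those of PDIA5, EDEM2 and MANF, and since the DEX wells enter this comparison and that with no drug, their values are given by group. PDIA5 averaged 14.5 ± 0.73 CPM with both compounds and 18.6 ± 0.35 CPM with DEX, a fall of 1.28-fold (-0.35 ± 0.060, adjusted p = 0.000879). EDEM2 averaged 42.4 ± 4.3 CPM and 53.3 ± 0.33 CPM in the same groups (-0.33 ± 0.060, adjusted p = 0.00142). MANF averaged 78.0 ± 3.8 CPM with both compounds and 97.6 ± 0.18 CPM with DEX (-0.32 ± 0.038, adjusted p = 5.95e-05). In all 3 genes every combination well lay below every DEX well, as in all 11 genes that fell. Such a separation is likely in called genes and adds no support. The no-drug means were 12.7 ± 0.92, 40.2 ± 2.1 and 76.5 ± 2.4 CPM, and against them the combination wells differed by 0.20 ± 0.061 for PDIA5, which was called (adjusted p = 0.0166), and by 0.078 ± 0.061 and 0.029 ± 0.038 for EDEM2 and MANF, which were not (adjusted p 0.323 and 0.575).

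HSPA5 rose, with 513 ± 22 CPM with both compounds and 459 ± 18 CPM with DEX (0.16 ± 0.044, adjusted p = 0.0144). Every combination well lay above every DEX well. The call was lost without DEX replicate 1 (edgeR adjusted p = 0.0543), DEX replicate 3 (0.0671) or combination replicate 2 (0.0707). The cytosolic heat shock gene DNAJB1 had 247, 294 and 229 CPM with both compounds and 151, 151 and 149 CPM with DEX, and whether that shift has a part in the HSPA5 difference was not tested. HSP90B1 and HYOU1, which rose with HSPA5 under DEX alone, were not called (-0.00079 ± 0.035 and 0.029 ± 0.028, adjusted p 0.990 and 0.487).

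EDEM1 had 102, 96.2 and 116 CPM with both compounds and 132, 123 and 122 CPM with DEX, without overlap, and fell (-0.26 ± 0.060, adjusted p = 0.00618). XBP1 fell as well (-0.19 ± 0.049, adjusted p = 0.0113), a call lost without DEX replicate 2 (edgeR adjusted p = 0.0502) or combination replicate 2 (0.0555). The smaller falls of CANX (-0.11 ± 0.033), PDIA6 (-0.11 ± 0.034), DNAJC3 (-0.15 ± 0.044), SEL1L (-0.19 ± 0.052) and SSR1 (-0.13 ± 0.037) were each lost without DEX replicate 2 and without combination replicate 2. Those of CANX, PDIA6 and SSR1 were also lost without combination replicate 1, that of CANX without DEX replicate 3 and that of SSR1 without DEX replicate 1. Those of CANX and DNAJC3 were also lost with the compared groups alone in the fit (edgeR adjusted p 0.0892 and 0.0519). MANF, PDIA5, EDEM1, EDEM2 and DERL2 (-0.12 ± 0.032) kept their call in all 19 alternatives.

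The rise of DERL1 (0.13 ± 0.036) was lost without DEX replicate 3 or combination replicate 2. TXNDC5 (0.83 ± 0.28) had 3.65, 3.70 and 7.06 CPM with both compounds. Without combination replicate 3, the highest, its edgeR adjusted p was 0.254, and the call was lost in 8 alternatives in all. PDIA3 had 415, 315 and 351 CPM with both compounds and 328, 333 and 341 CPM with DEX and was not called (0.11 ± 0.069), its combination wells lying on both sides of the DEX wells. Without combination replicate 2 it rose (log2 fold change 0.19, edgeR adjusted p = 0.0275). The not-called sensor gene ERN1 had 5.56, 5.58 and 4.82 CPM with both compounds and 4.22, 4.66 and 4.48 CPM with DEX (0.25 ± 0.10, adjusted p = 0.0801), and UGGT1 and SEC61G differed by -0.097 ± 0.045 and 0.081 ± 0.040.

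**Figure D3:**
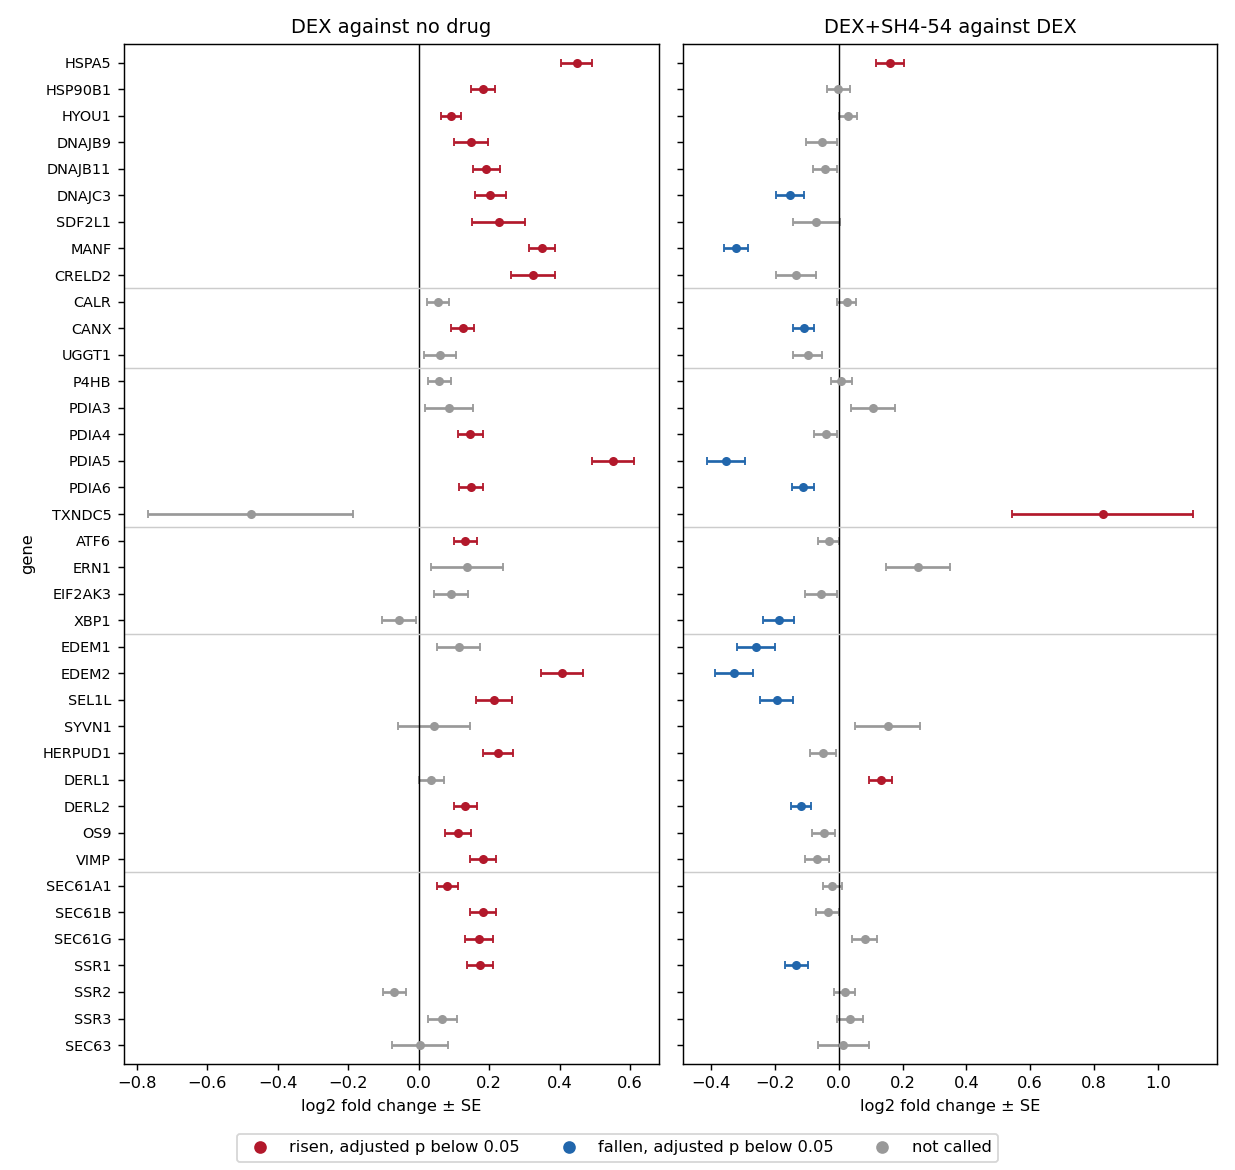
Points are log2 fold changes and bars standard errors for each of the 38 genes, on the left for DEX against no drug and on the right for both compounds against DEX, with the 2 panels on different scales. Red points rose, blue points fell and grey points were not called; the DEX wells are part of both panels.

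DEX was also tested on a background of SH4-54, both compounds against SH4-54, in wells other than those that compared DEX with no drug. Of the 38 genes 17 rose and 1, EDEM1, fell. The rises are 44.7% of the 38, against 20.1% of all tested genes, the 1 fall is 2.63%, against 20.3%, and the calls in all are 47.4%, against 40.4%. Of the 24 genes that rose with DEX alone, 13 also rose here (54.2%), which are 76.5% of the 17. Without combination replicate 2 the shared rises were 15, or 62.5% of 24 and 78.9% of 19. Without combination replicate 3 they were 13, or 52% of 25 and 76.5% of 17. Shares over all tested genes were computed only with all 12 libraries, at 63.1% and 68.6%, beside 54.2% and 76.5% for the 38 genes. HSPA5 had the largest rise of the genes called (0.53 ± 0.044, adjusted p = 2.49e-07), with 492, 536 and 512 CPM with both compounds and 363, 364 and 343 CPM with SH4-54. HERPUD1 (0.30 ± 0.043), CRELD2 (0.27 ± 0.063), PDIA5 (0.24 ± 0.062), DNAJB11 (0.20 ± 0.038) and MANF (0.17 ± 0.038) rose too.

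Of the isomerases 5 of 6 rose, and of the lumenal genes 6 of 9. The isomerases included PDIA3 (0.26 ± 0.069) and P4HB (0.13 ± 0.034), which had not been called with DEX alone. None of the 4 sensor genes was called. Among the degradation genes HERPUD1 and VIMP rose and EDEM1 fell (-0.21 ± 0.060), a call lost without SH4-54 replicate 1 (edgeR adjusted p = 0.0537) or combination replicate 2 (0.0536). EDEM2, SEL1L and DERL2, raised by DEX alone, had 0.13 ± 0.061, -0.014 ± 0.052 and 0.070 ± 0.032 here and were not called. In translocation SEC61B (0.18 ± 0.036), SEC61G (0.19 ± 0.040) and SSR3 (0.12 ± 0.041) rose, the last with overlapping wells. The call of SSR3 was lost without combination replicate 1 or 2 or SH4-54 replicate 2 or 3 (edgeR adjusted p 0.0777 to 0.122), and with the compared groups alone in the fit (0.0655). Without combination replicate 2 the number that rose was 19 and none fell, while 5184 of all tested genes were called, against 5736 with all libraries. Without combination replicate 3 the numbers were 17 risen and 3 fallen, while 5729 of all tested genes were called.

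**Figure D4:**
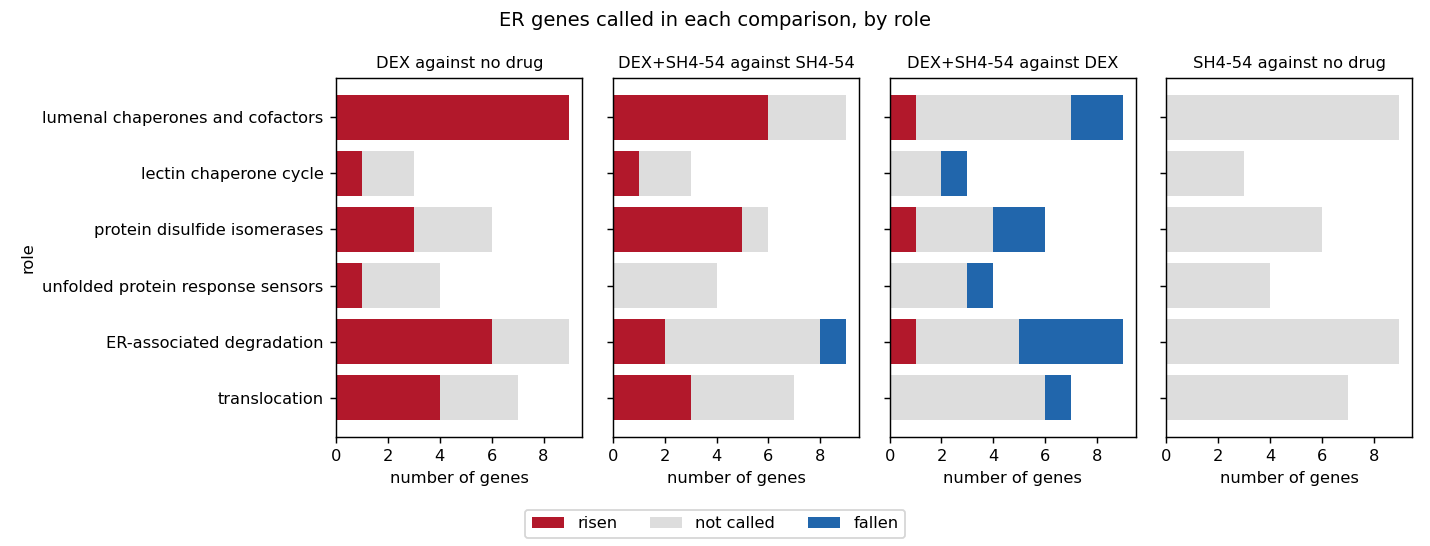
Bars give the number of genes that rose, were not called or fell in each of the 6 roles, in 4 comparisons. All 9 lumenal chaperone and cofactor genes rose with DEX alone and 6 of them with DEX in the presence of SH4-54, while no gene of any role was called with SH4-54 alone.

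Both compounds together, compared with no drug, raised 16 of the 38 genes and lowered XBP1. The 17 calls are 44.7%, against 42.7% of all tested genes, and the 16 rises 42.1%, against 21.1%. HSPA5 reached a 1.53-fold higher level than without drug (0.61 ± 0.044, adjusted p = 4.37e-08), the largest difference from the no-drug wells called among the 38 genes. ERN1 (0.39 ± 0.10), SEC61G (0.25 ± 0.040) and DERL1 (0.17 ± 0.036) rose as well. XBP1 fell (-0.24 ± 0.048, adjusted p = 0.000873), with all 3 combination wells below all 3 no-drug wells. The rises of ATF6, CALR, CRELD2, PDIA3, PDIA4, PDIA5 and VIMP were each lost in at least 3 alternatives. Without combination replicate 2 the numbers were 15 risen and 1 fallen, while 5484 of all tested genes were called, against 6051 with all libraries. Without combination replicate 3 they were 12 risen and 2 fallen, while 6121 of all tested genes were called.

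The interaction asked whether the DEX effect differed between cells with and without SH4-54. Of the 38 genes 1 passed, EDEM1, against 3.9% of all tested genes. Its DEX effect was -0.21 ± 0.060 with SH4-54 and 0.11 ± 0.060 without it, a difference of -0.33 ± 0.085 (adjusted p = 0.0472). The call was lost with the replicate number as a block (0.0563) and whichever of the 12 libraries was left out, except combination replicate 3, with edgeR adjusted p from 0.0552 to 0.126. The differences of PDIA5 (-0.31 ± 0.087, adjusted p = 0.0623), MANF (-0.18 ± 0.053, 0.0763), SSR1 (-0.17 ± 0.053, 0.0763), EDEM2 (-0.27 ± 0.086, 0.0882) and SEL1L (-0.23 ± 0.073, 0.0906) did not pass. At an unadjusted p below 0.05 stood 8 genes, 21.1%, the same share as of all tested genes (21.1%). HSPA5 had a difference of 0.079 ± 0.062 (adjusted p = 0.511), and for HERPUD1 it was 0.072 ± 0.060 (adjusted p = 0.531).

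Other genes of the pathway, 83 in all of which 81 were tested, went both ways with DEX. Of them 25 rose (30.9%, against 21.9% of all tested genes) and 13 fell (16.0%, against 23.2%), with a median log2 fold change of 0.026. The oligosaccharyltransferase genes, which attach glycans to entering proteins, had 6 of 9 risen and none fallen, among them OSTC (0.21 ± 0.032) and STT3B (0.18 ± 0.029). Of 10 other translocon and signal peptidase genes 5 rose and 1 fell, and the smallest p were those of the translocating chain-associated protein gene TRAM1 (0.49 ± 0.038), which had 642 ± 21 CPM with DEX and 457 ± 17 CPM without drug, and its relative TRAM2 (0.44 ± 0.052). The signal recognition particle genes had 2 of 8 risen, SRPRB (0.26 ± 0.033) and SRP54 (0.14 ± 0.037). Of 8 glycan-trimming genes 3 rose, among them the mannosidase gene MAN1B1 (0.36 ± 0.039) and EDEM3 (0.16 ± 0.047).

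The remaining subgroups went both ways with DEX. Of 19 further isomerase, oxidase and cofactor genes 7 rose, among them the BiP exchange factor gene SIL1 (0.32 ± 0.044), and 4 fell, among them the prolyl isomerase gene FKBP14 (-0.43 ± 0.050). Of 15 other degradation genes 1 rose and 4 fell, among them VCP (-0.16 ± 0.030), the ATPase that extracts proteins from the membrane, and its cofactor gene NPLOC4 (-0.21 ± 0.032). Of 12 genes of unfolded protein response signalling and its targets 1, TRIB3 (0.35 ± 0.053), rose and 4 fell. The phosphatase subunit gene PPP1R15A, which reverses the translation block set by PERK, had 49.9, 50.1 and 49.6 CPM with DEX and 83.6, 82.7 and 88.1 CPM without drug (-0.77 ± 0.11, adjusted p = 6.56e-05).

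With both compounds, compared with DEX, 16 of the 81 rose (19.8%, against 13% of all tested genes) and 21 fell (25.9%, against 13.5%). Without combination replicate 2 the numbers were 12 and 11, and without DEX replicate 2 they were 13 and 12. Those fits called 2213 and 2663 of all tested genes, against 3770 with all libraries. Without combination replicate 3 the numbers were 16 risen and 25 fallen, while 4633 of all tested genes were called. PPP1R15A had 129, 174 and 109.7 CPM with both compounds and 49.9, 50.1 and 49.6 CPM with DEX (1.46 ± 0.11, adjusted p = 2.02e-06). Genes with the smallest p of their subgroup that fell were SPCS3 (-0.20 ± 0.031), MAGT1 (-0.20 ± 0.039), MAN1B1 (-0.28 ± 0.039), SRP54 (-0.16 ± 0.037) and DNAJC10, a J-protein with disulfide reductase activity (-0.19 ± 0.036). TRIB3, named for its change with DEX, fell too (-0.32 ± 0.053). The ubiquitin-conjugating enzyme gene UBE2J2 rose (0.23 ± 0.040), and FKBP14 rose (0.26 ± 0.051). Under SH4-54 alone none of the 81 was called by edgeR in the main fit, and 8 had an unadjusted p below 0.05 (9.88%, against 13.1% of all tested genes). The DESeq2 Wald test called 1 risen and 1 fallen among 79 of them, and 185 over all tested genes. In edgeR 1 rose without a count filter, with the compared groups alone or without combination replicate 2, and 2 fell without combination replicate 3. Over all tested genes those 4 fits called 176, 155, 138 and 163. The stress transcription factor gene DDIT3, chosen after its values were seen, had 18.6, 20.4 and 15.7 CPM with both compounds, 12.3, 14.5 and 13.7 CPM with DEX, 17.5, 18.5 and 18.4 CPM with SH4-54 and 19.0, 17.8 and 19.8 CPM without drug. It fell with DEX (-0.48 ± 0.086) and rose with both compounds against DEX (0.43 ± 0.087).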

How the data were processed

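The 12 libraries came from wells of 1 cell line, with ribosomal RNA removed and a stranded single-end protocol, per the labels' protocols. The authors deposited read counts, whole numbers by gene symbol, unnormalized. The submitters' processing notes name HISAT2 2.1.0, SAMtools, featureCounts 1.5.1 and hg19 (GRCh37). No annotation or strand setting was found in the labels, so overlapping genes and close copies are uncertain. Of 26364 rows 4474 were 0 throughout. The treatment tag writes SH5-54 for SH4-54, and titles were followed. RefSeq promoters and their coordinates are on GRCh38.p14, a build other than that of the counts.

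With edgeR 4.0.16 in R 4.3.3, filterByExpr kept 14184 genes, TMM scaled them and a quasi-likelihood model of the 4 groups used all libraries, leaving 8 residual degrees of freedom. In each of 6 comparisons p-values were adjusted over all tested genes by Benjamini-Hochberg, threshold 0.05. Each standard error is the size of the log2 fold change divided by the root of F. The procedure was tested on simulated data. Of 50 genes changed by 1.3-fold it found 38 for DEX and 40 for SH4-54, each against no drug, and 37 for both compounds against DEX. False calls were 4.19%, 4.57% and 7.04% of the calls in those comparisons. Most changes called among the 38 genes were smaller than 1.3-fold, a size that was not simulated. Alternatives were DESeq2 1.42.0 (size factors, Wald test), no count filter or a stricter one (1 CPM in 3 libraries, mean 20 counts), a replicate block, the compared groups alone, the 10 most abundant genes removed, and each library left out. Replicates differed by more than counting noise (lowest chi-square per degree of freedom 4.23).

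All 38 genes are named. Well values were due for HSPA5, XBP1, DNAJB9 and HERPUD1 and, in each role, the 3 smallest p-values with DEX and 2 smallest with both compounds against DEX. From each other pathway subgroup 2 and 1 genes were taken likewise. Wells of PDIA3, TXNDC5, SEL1L, FKBP5, DNAJB1, HSPA6, PPP1R15A and DDIT3 were added after their values were seen. Members, lists and rule were written with earlier results of these data known. ERO1L and ERO1LB were found as ERO1A and ERO1B, and RNF5 and ERN2 had too few counts to test.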

Additional observations from a re-analysis of the deposited data

Results flagged for a closer look

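In the main fit the DEX effect on EDEM1 differed between cells with and without SH4-54, by an interaction term of -0.33 ± 0.085 on the log2 scale (edgeR adjusted p = 0.0472). That call was lost in 12 of the 18 alternatives, with edgeR adjusted p up to 0.126. As the only call it is 2.63% of the 38 genes, against 3.9% of all tested genes. EDEM1 had 102, 96.2 and 116 CPM with both compounds, 132, 123 and 122 CPM with DEX, 128, 118 and 118 CPM with SH4-54 and 121, 117 and 110.1 CPM without drug. With groups of 3 wells no single well was tested as lying apart.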

How the results depend on the processing

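No member's call turned its direction in any of the 19 alternatives (18 for the interaction). For DEX against no drug the number called stayed between 19 and 25 when a library was left out, and 19 of 24 calls held in every alternative. The other comparisons held 10 of 17 calls (both compounds against no drug), 5 of 14 (against DEX) and 16 of 18 (against SH4-54). Without 1 library the number called ran from 12 to 17 for both compounds against no drug, from 7 to 16 against DEX and from 17 to 20 against SH4-54, and stayed at 0 for SH4-54 alone. Against DEX the number called over all tested genes ran from 2213 to 4633 in the same fits. It ran from 5526 to 6685 for DEX against no drug and from 5141 to 6233 for both compounds against no drug. For both compounds against SH4-54 it ran from 4846 to 5729. The interaction count of 1 was 3 with the DESeq2 Wald test (EDEM1, SEL1L and SSR1), 3 without a count filter (EDEM1, SEL1L and TXNDC5), 0 with the replicate block and from 0 to 8 without 1 library. The 8, all lower, came without combination replicate 3 and were MANF, DNAJC3, UGGT1, PDIA5, EDEM1, EDEM2, SEL1L and SSR1. Over all tested genes the interaction count moved the same way. It was 553 in the main fit, 754 with the DESeq2 Wald test and 848 without a count filter. With the replicate block it was 394, and without combination replicate 3 it was 2046. The cause was not tested. With the replicate number as a block 23 genes rose with DEX, all among the 24. The replicate numbers did not pair the wells, as deviations from the group means correlated between -0.097 and 0.093 for the 18 same-numbered pairs. Letting the parts of ERSE lie 8 to 10 bases apart kept 6 genes. No other scaling moved the median of all genes by over 0.1 on the log2 scale. The standard errors were largest for TXNDC5, ERN1 and SYVN1, at 0.29, 0.10 and 0.10 for DEX against no drug, against a median of 0.041.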

Other observations

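Combination replicate 2, which had the most HSPA6, also had the most HSPA5 of the 3 combination wells (492, 536 and 512 CPM) but not the most HSP90B1 (1169, 1204 and 1214 CPM), and it had the least EDEM1, EDEM2 and SEL1L (164, 152 and 182 CPM for the last). Combination replicate 3 had the most CANX, UGGT1, EDEM1 and EDEM2 of the 3. PDIA3 was highest in combination replicate 1 (415, 315 and 351 CPM), while its pseudogene PDIA3P1 ran from 38.5 to 44.8 CPM over all libraries and was highest in DEX replicate 1.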
